A study of Mus musculus with 12 samples.

Results

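The endoplasmic reticulum (ER) stress genes form a set of 38 genes that fold, inspect and discard proteins of the secretory pathway, together with the sensors and transcription factors that control them. The set was drawn up by name, and its members were taken from the arrays as the probes that carry the gene symbol or an older alias of it, with 1 probe per gene, the brightest over all arrays. All 38 genes were found among 41174 distinct probes, 3 of them under an older name (*Manf* as Armet, *Sel1l* as Sel1h and *Ppp1r15a* as Myd116). They comprised 15 ER chaperones and folding enzymes, 11 genes of ER-associated degradation (ERAD), 4 genes of the stress sensors and *Xbp1*, and 8 genes of the *Atf4*-*Ddit3* branch.

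Proteins that fail to fold in the ER lumen draw the chaperone BiP, encoded by *Hspa5*, away from the sensors Ire1 (*Ern1*), Perk (*Eif2ak3*) and Atf6, and the freed sensors start the unfolded protein response. Ire1 splices *Xbp1* mRNA, Perk phosphorylates the initiation factor eIF2alpha and so favours translation of *Atf4*, and Atf6 is cut to release a transcription factor. Together they raise chaperone and ERAD genes, and under lasting stress *Ddit3*, which encodes Chop. In ERAD, misfolded proteins are trimmed and unfolded, passed through a membrane complex built around the ubiquitin ligase Hrd1 (*Syvn1*) and its partner *Sel1l*, and degraded in the cytosol.

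RNA came from C57MG cells, a line of mouse mammary epithelial cells, grown overnight and then held for 24 h in plain DMEM without serum. The 4 groups received the carrier protein bovine serum albumin (BSA), recombinant human Rspo2 at 100 ng/ml, recombinant mouse Wnt3a at 100 ng/ml, or both proteins, with 3 separately treated monolayers per group. Wnt3a is a secreted ligand of the beta-catenin pathway, and Rspo2 is a secreted protein that strengthens that pathway. Each of the 12 samples was hybridised to its own single-color Agilent array, and the 3 replicates per group limit the precision. Bulk RNA cannot tell fewer cells with a transcript from less transcript per cell.

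Over the arrays, 51.28% to 64.17% of probes were well above background, and the 75th percentile of intensity lay between 773.9 and 1146. Arrays of 1 group correlated at 0.989 to 0.996 over the tested probes, and arrays of different groups at 0.977 to 0.993. The arrays lay on 3 slides: the BSA samples and Rspo2 replicate 1 on slide 1, Rspo2 replicates 2 and 3 with Wnt3a replicates 1 and 2 on slide 2, and Wnt3a replicate 3 with the 3 samples of both proteins on slide 3. BSA thus never shared a slide with Wnt3a or with the combination. Of 14 mammary epithelial markers, *Krt8* and *Krt14* were well above background on all 12 arrays, and *Cdh1*, *Cldn7* and *Esrp1* on none, while 8 of 10 fibroblast or mesenchymal markers were above it on all 12. *Cdh1* encodes E-cadherin, so this defining epithelial marker was absent at this sensitivity. The other 9 epithelial markers were above background on some arrays, from 1 for *Elf3* to 10 for *Krt5*. Of 6 myoepithelial markers, *Acta2*, *Tagln* and *Trp63* were above it on all 12 arrays, and the other 3 on some. The mean log2 value of the fibroblast or mesenchymal list was 2.51 to 2.63 in BSA and 2.06 to 2.18 with both proteins, where 3 of its 8 tested genes fell and 0 rose; its part in the results was not tested.

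Of the 38 ER stress genes, 36 were well above background on all 12 arrays and were tested. *Derl3*, a Derlin of the ERAD channel, and *Atf3*, a stress-induced transcription factor, did not pass in any group: *Derl3* was well above background on 1 array and *Atf3* on 0. Values are given as log2 intensity relative to the 75th percentile of the same array, so 0 is the level of that percentile, and differences are log2 changes. Changes were tested with limma over 22751 probes, with Benjamini-Hochberg adjusted p.

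*Foxred2* fell, and it was the only one of the 36 to reach both a 2-fold change and an adjusted p under 0.05 in any comparison. It encodes an FAD-binding oxidoreductase of the ER lumen that works with Sel1l in ERAD. In BSA its log2 values were -1.56, -1.62 and -1.69 in replicates 1 to 3, and with Rspo2 they were -1.52, -1.87 and -1.87. With Wnt3a they were -2.79, -2.77 and -2.79, and with both proteins -4.83, -4.74 and -4.48. The BSA and Rspo2 samples overlapped, the Wnt3a samples lay below all of them, and the samples with both proteins lay below every Wnt3a sample. In intensity, *Foxred2* went from between 322 and 374 in BSA to between 33 and 47.5 with both proteins, and all 12 spots stayed well above background.

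Against BSA, the log2 change of *Foxred2* was -0.13 with Rspo2 (SE 0.11, adjusted p = 0.432 by limma), with a 95% interval from -0.39 to 0.12. Wnt3a lowered it by a log2 change of -1.16 (SE 0.11, adjusted p = 0.000165), or 2.24-fold. Both proteins lowered it by -3.06 (SE 0.11, adjusted p = 5e-08), or 8.35-fold. Against Wnt3a alone, both proteins lowered it by -1.90 (SE 0.11, adjusted p = 9.5e-06), or 3.73-fold.

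The effect of Rspo2 on *Foxred2* therefore differed with and without Wnt3a, and the interaction term, which is the effect of Rspo2 beside Wnt3a less its effect alone, was -1.76 on the log2 scale (SE 0.16, adjusted p = 0.000333). Within slide 3, the samples with both proteins less the Wnt3a sample gave -1.89, and within slide 2, Wnt3a less Rspo2 gave -0.91. A model that also held slide gave -2.70 with both proteins (adjusted p = 0.00115), but -0.81 with Wnt3a, which lost its call (adjusted p = 0.0944). Normexp background correction was run with an offset of 50 added to every intensity, above the 33 to 47.5 of *Foxred2* with both proteins. With that correction the change with both proteins was -1.98 (adjusted p = 0.00315), that with Wnt3a was -0.98 (adjusted p = 0.128), and the interaction was -1.13 (adjusted p = 0.688). The part of the offset in these values was not tested. A further *Foxred2* probe, for another transcript, was not well above background in any whole group and was not tested.

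The share of all tested probes that passed the 2-fold threshold was 0.721% with Rspo2, 2.52% with Wnt3a, 5.08% with both proteins against BSA, 0.747% with both against Wnt3a, and 1.93% for the interaction. Among the 36 genes the counts were 0, 1, 1, 1 and 1, and each call was *Foxred2*. For the other 35 genes the 95% interval of the change lay inside 2-fold in either direction, with Rspo2, with Wnt3a and with both proteins. The comparisons with BSA share the same 3 control arrays, so their values stand side by side and are not independent of one another.

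**Figure D1:**
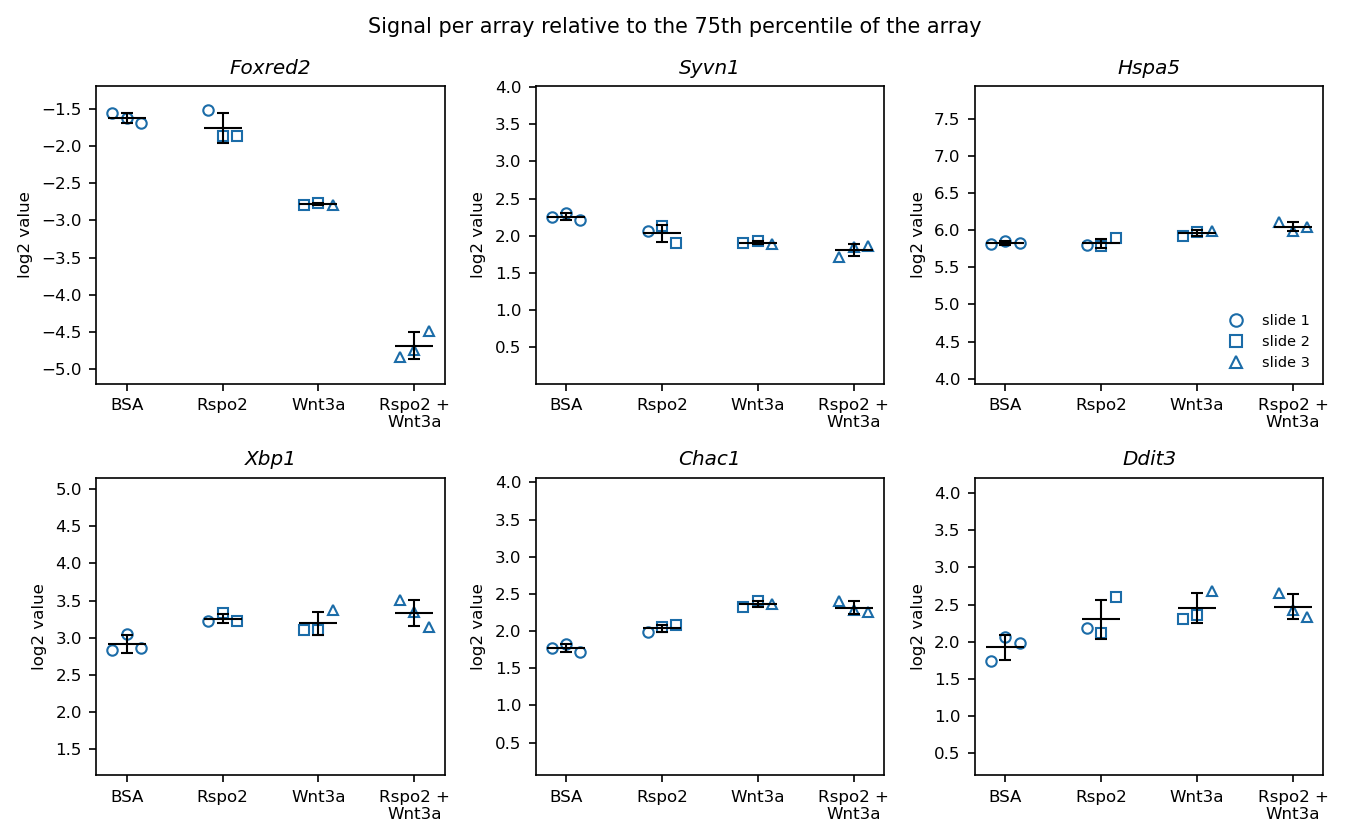
Log2 value of 6 genes on each of the 12 arrays, by treatment (x axis), where 0 is the 75th percentile of the array, with the y axis spanning 4 log2 units in every panel. Symbols mark the slide, the horizontal line the group mean and the bars the SD (n = 3): *Foxred2* drops from -1.62 to -4.68 in the group means, while the other 5 genes move by -0.45 to 0.55 between BSA and both proteins.

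Promoter sequence is shown for *Foxred2*, the gene called at 2-fold, for *Hspa5*, the usual readout of the response, and for *Syvn1* and *Chac1*, which fell and rose with both proteins under 75th percentile and quantile scaling alike, since the branches of the response act through known DNA elements. The sequences are RefSeq windows on GRCm38.p6, from 250 bases before to 50 bases after the annotated start, written 5′ to 3′ on the strand of the gene. The windows are chr15:77956673-77956972 on the minus strand for *Foxred2*, and on the plus strand chr2:34771840-34772139 for *Hspa5*, chr19:6046326-6046625 for *Syvn1* and chr2:119350992-119351291 for *Chac1*. Capitals mark matches to the elements searched: the ER stress element in *Hspa5* and *Syvn1*, the C/EBP-ATF element on the opposite strand in *Chac1*, and no match in *Foxred2*.
Foxred2: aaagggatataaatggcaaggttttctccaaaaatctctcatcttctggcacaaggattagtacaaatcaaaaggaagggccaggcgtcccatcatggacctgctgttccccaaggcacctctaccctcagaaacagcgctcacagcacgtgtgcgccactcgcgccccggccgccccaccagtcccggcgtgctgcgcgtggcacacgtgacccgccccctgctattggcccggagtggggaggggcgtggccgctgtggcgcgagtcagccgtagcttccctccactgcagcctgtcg
Hspa5: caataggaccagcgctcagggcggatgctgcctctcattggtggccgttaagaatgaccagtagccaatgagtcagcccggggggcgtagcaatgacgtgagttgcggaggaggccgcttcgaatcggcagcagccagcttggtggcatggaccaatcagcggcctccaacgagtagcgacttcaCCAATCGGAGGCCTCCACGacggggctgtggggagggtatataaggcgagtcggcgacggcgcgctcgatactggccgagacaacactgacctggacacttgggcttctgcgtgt
Syvn1: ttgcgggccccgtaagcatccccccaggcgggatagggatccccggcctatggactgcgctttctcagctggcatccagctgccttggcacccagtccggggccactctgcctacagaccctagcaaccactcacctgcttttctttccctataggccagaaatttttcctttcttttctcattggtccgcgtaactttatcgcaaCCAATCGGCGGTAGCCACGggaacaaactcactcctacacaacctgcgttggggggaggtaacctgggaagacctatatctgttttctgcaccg
Chac1: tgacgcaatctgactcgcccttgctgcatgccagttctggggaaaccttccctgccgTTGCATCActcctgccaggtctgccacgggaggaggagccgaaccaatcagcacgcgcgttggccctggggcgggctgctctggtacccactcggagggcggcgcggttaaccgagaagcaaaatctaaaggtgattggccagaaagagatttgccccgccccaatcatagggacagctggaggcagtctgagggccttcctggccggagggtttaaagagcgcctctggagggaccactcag

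A promoter window was found for 34 of the 38 genes, and *Atf6*, *Derl1*, *Hyou1* and *Manf* had none. The ER stress element was searched on both strands as CCAAT, then 9 bases, then CCACG. It was present in the windows of 9 genes (26.5% of 34), namely *Calr*, *Canx*, *Creld2*, *Derl3*, *Dnajc3*, *Hsp90b1*, *Hspa5*, *Pdia6* and *Syvn1*, against 0.119% of 32851 promoter windows. Its other form, ATTGG, then 1 base, then CCACG, was present in *Dnajb11* and *Herpud1* (5.88% against 0.0365%). The C/EBP-ATF element TGATGNAA, which Atf4 binds, was in *Asns*, *Atf3*, *Chac1*, *Herpud1* and *Trib3* (14.7% against 3.97%), and the element TGACGTGG was in none of the 34 (0.676% of all windows). A match is a description of the letters and not a test of binding.

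The 8 tested genes with the ER stress element differed in direction. With both proteins *Hspa5* and *Hsp90b1* passed the test upwards and *Syvn1* downwards, and the log2 changes ran from -0.45 to 0.31 with a median of 0.21. In *Hspa5* the element began 65 bases before the start and in *Syvn1* 44 bases before it. Of the 19 tested genes whose windows held none of the elements, 8 rose and 2 fell, with a median of 0.23, beside 21.9% and 17.3% of all tested probes. After quantile normalization 3 of these 19 rose and 2 fell, and of the 8 with the ER stress element 0 rose and 1 fell.

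At any size of change, 5 of the 36 genes rose and 1 fell with Rspo2, 10 rose and 3 fell with Wnt3a, and 14 rose and 3 fell with both proteins. Over all tested probes 10.9% rose and 5.92% fell with Rspo2, 18.3% rose and 13.2% fell with Wnt3a, and 21.9% rose and 17.3% fell with both. Between both proteins and Wnt3a alone, and in the interaction, *Foxred2* was the single gene to pass at its brightest probe, where 4.27% and 8.9% of all probes did. The median log2 change of the 36 genes was 0.08 with Rspo2, 0.15 with Wnt3a and 0.21 with both, beside 0.01, 0 and 0.04 over all tested probes. The rises were small, none above a log2 change of 0.60, or 1.52-fold.

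These rises depended on the scaling of the arrays, and signal moved with them. The 36 probes were bright, with a median log2 intensity of 12.47 against 9.48 for all tested probes, and bright probes as a whole were higher in the treated samples. Among the 1239 tested probes with a mean log2 intensity of 14 or more, the median change with both proteins was 0.35 and 58.8% rose, and the 9 ER stress genes in that range had a median of 0.31. Between 12 and 14 the median was 0.23 over 3178 probes and 0.28 over 11 ER stress genes. After quantile normalization, which gives all arrays the same distribution, 1 gene rose and 4 fell with Rspo2, 4 rose and 5 fell with Wnt3a, and 5 rose and 3 fell with both proteins, and the median over the 36 genes became -0.07, -0.03 and 0. Over all tested probes under that scaling 6.72% rose and 5.35% fell with Rspo2, 14.1% and 9.84% with Wnt3a, and 19.6% and 16.9% with both proteins, so the genes that rose with Wnt3a or with both proteins were no larger a share than among all probes.

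**Figure D2:**
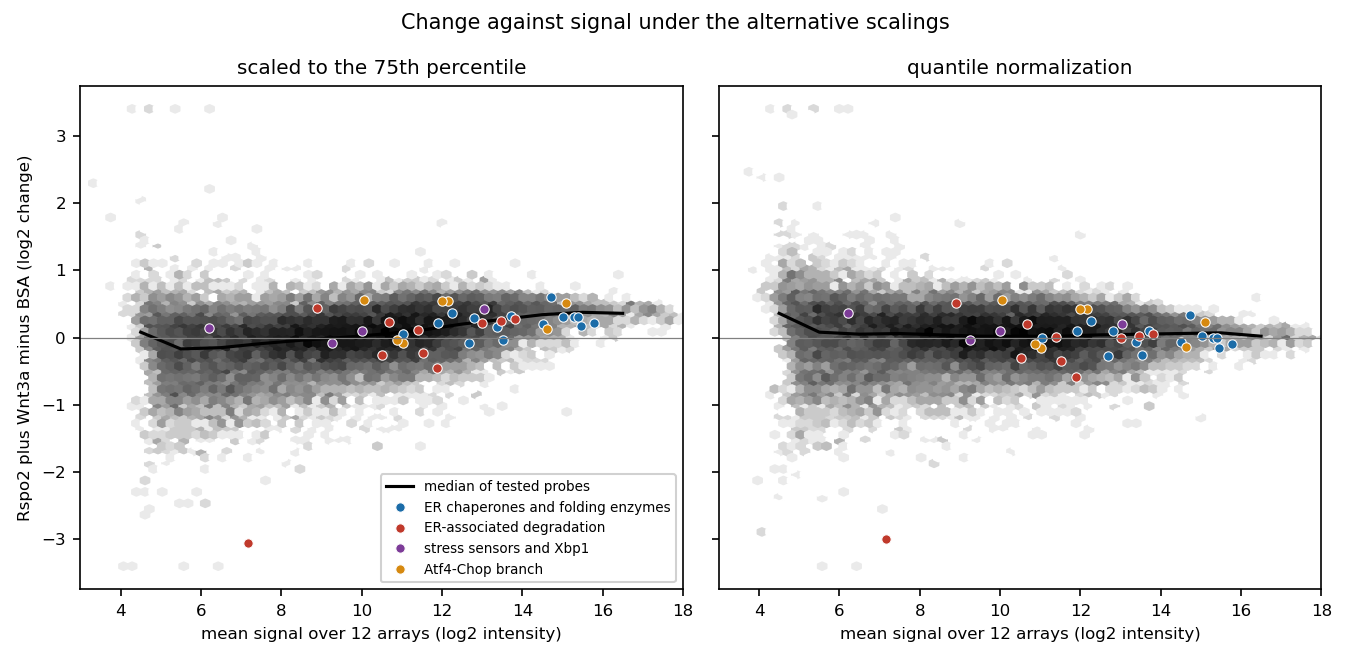
Log2 change between both proteins and BSA (y axis) against mean log2 intensity over the 12 arrays (x axis), with all 22751 tested probes in grey (darker is denser, values beyond 3.4 drawn at the edge), their running median as a black line, and the 36 ER stress genes colored by branch. On the left, with arrays scaled to the 75th percentile, the line climbs with signal and most genes lie near it. On the right, after quantile normalization, the line is near 0, and *Foxred2* remains at -3.00.

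With both proteins, *Manf*, *Dnajb9*, *Ddit3*, *Chac1* and *Ppp1r15a* rose and *Syvn1*, *Edem3* and *Foxred2* fell under both scalings, 5 and 3 of 36 genes, which is below the 19.6% and 16.9% of all probes called after quantile normalization. With Wnt3a the genes that did so were *Sdf2l1*, *Manf*, *Dnajb9* and *Chac1* upwards and the same 3 downwards, and with Rspo2 *Sdf2l1* upwards and *Edem3* downwards. Slide moved with the groups too. With slide as a term, 0 genes passed with Rspo2 or with Wnt3a, and with both proteins 0 rose and 1 fell, which was *Foxred2*. For Rspo2 alone the counts also went to 0 without BSA replicate 1, 2 or 3, or without Rspo2 replicate 2 or 3. With both proteins the number that rose was 7 without Rspo2 plus Wnt3a replicate 1, 9 without its replicate 2 and 9 without BSA replicate 3, and with Wnt3a it was 6 without BSA replicate 3.

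**Figure D3:**
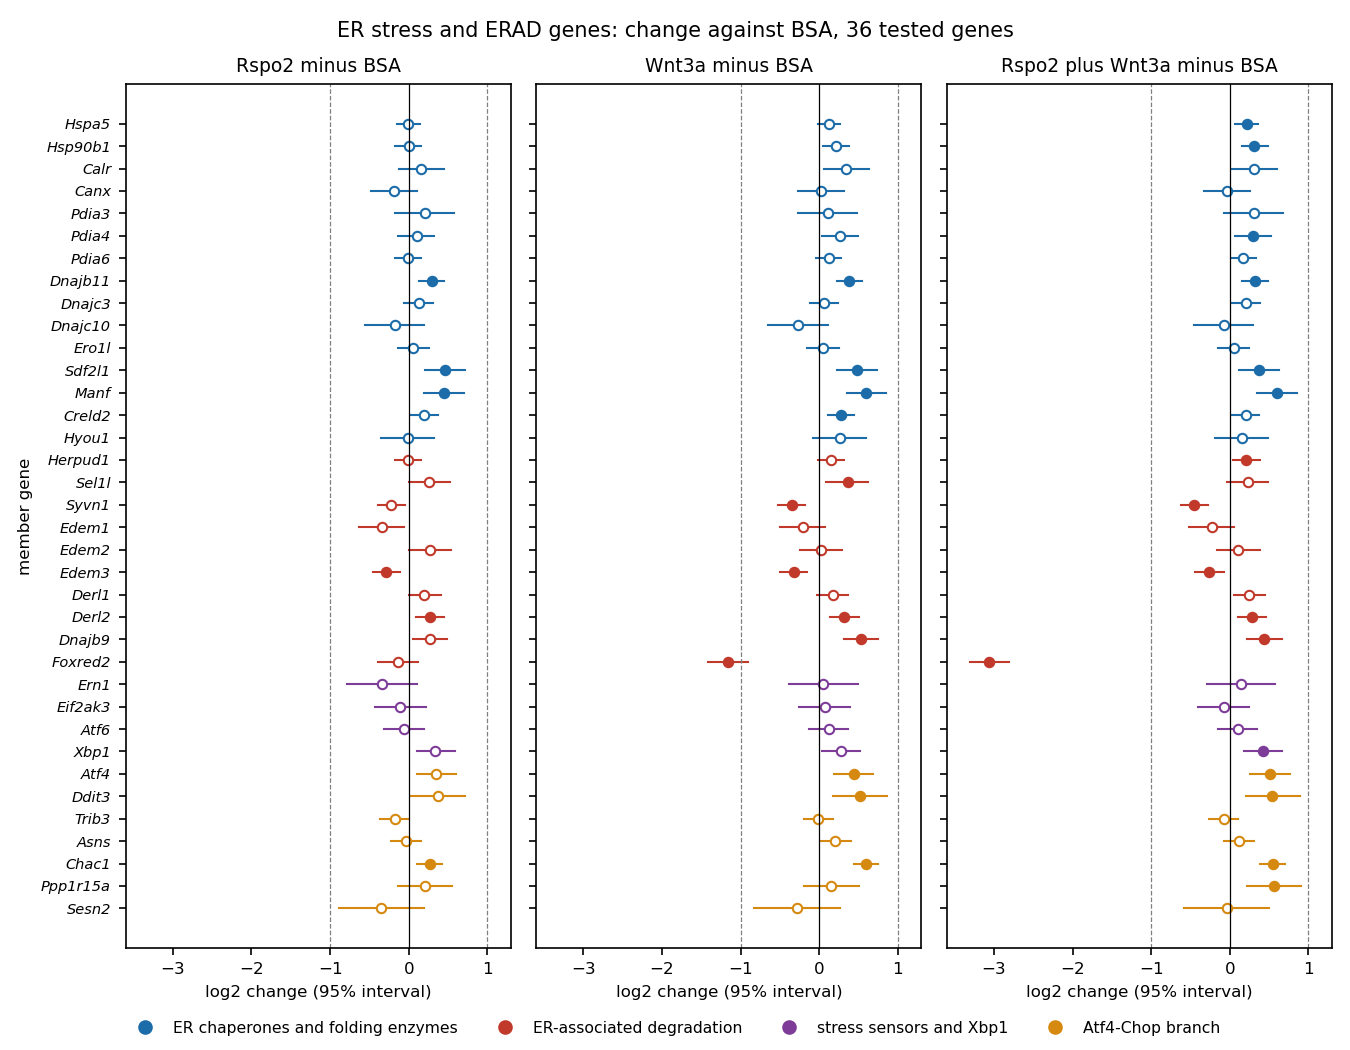
Log2 change against BSA (x axis) with its 95% interval for the 36 tested genes (y axis), with Rspo2 (left), Wnt3a (middle) and both proteins (right), scaled to the 75th percentile and colored by branch. Filled points have an adjusted p under 0.05, and dashed lines mark 2-fold: *Foxred2* at -1.16 and -3.06 lies outside them, and the other 35 genes with their intervals lie inside.

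Among the 15 ER chaperones and folding enzymes, 3 rose with Rspo2, 4 with Wnt3a and 6 with both proteins, and none fell. Over all tested probes 10.9%, 18.3% and 21.9% rose. After quantile normalization 1 of the 15 rose and 2 fell with Rspo2, 2 rose and 2 fell with Wnt3a, and 1 rose and 0 fell with both proteins. *Hspa5*, the master chaperone and the usual readout of the response, had log2 values of 5.81, 5.86 and 5.82 in BSA and 5.80, 5.78 and 5.89 with Rspo2. It had 5.92, 5.97 and 5.99 with Wnt3a and 6.11, 5.99 and 6.04 with both proteins. The Rspo2 samples overlapped BSA, and the other treated samples lay just above it. Its log2 change with both proteins was 0.22 (SE 0.07, adjusted p = 0.024), which turned to -0.10 after quantile normalization (adjusted p = 0.274). With Wnt3a it was 0.13 (adjusted p = 0.166), and -0.22 after quantile normalization (adjusted p = 0.0423).

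*Manf*, which encodes a small secreted protein of the stressed ER, had the largest rise of this branch with Wnt3a and with both proteins. Its log2 values were 4.32, 4.53 and 4.45 in BSA, 4.72, 4.88 and 5.04 with Rspo2, 4.93, 5.09 and 5.08 with Wnt3a, and 5.23, 5.00 and 4.87 with both proteins. All 9 treated samples lay above the BSA samples, and the treated groups overlapped one another. Rspo2 raised it by 0.45 (adjusted p = 0.0284), Wnt3a by 0.60 (adjusted p = 0.00354) and the combination by 0.60 (adjusted p = 0.00209). The Rspo2 call was lost in 11 of 26 other fits, among them quantile normalization. Under that scaling the change was 0.29 with Wnt3a (adjusted p = 0.0193) and 0.34 with both proteins (adjusted p = 0.00602). Within slide 1, Rspo2 replicate 1 lay 0.29 above the BSA mean.

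*Sdf2l1*, a partner of BiP in a chaperone complex, was between 1.99 and 2.17 in BSA and between 2.23 and 2.65 in all treated samples. Its log2 changes were 0.46 with Rspo2 (adjusted p = 0.0274), 0.48 with Wnt3a and 0.37 with both proteins. These calls were lost in 10, 3 and 12 of 26 other fits. After quantile normalization the change with Wnt3a was 0.33 (adjusted p = 0.025), and that with both proteins was 0.25 and did not pass (adjusted p = 0.0573). *Dnajb11*, a co-chaperone of BiP, also rose in all 3 comparisons with BSA, by 0.29, 0.38 and 0.32, although the first of these was -0.03 with normexp background correction. The Wnt3a change became 0.12 (adjusted p = 0.244) and that with both proteins 0.10 (adjusted p = 0.308) after quantile normalization. *Hsp90b1*, the ER Hsp90 protein Grp94, rose with both proteins by 0.31 (adjusted p = 0.0079), but was at -0.01 after quantile normalization. *Pdia4*, a disulfide isomerase, rose by 0.29 with both proteins, but was at 0.09 after quantile normalization (adjusted p = 0.555) and lost its call in 16 of 26 other fits. *Creld2*, another stress-induced folding factor, rose by 0.28 with Wnt3a, which became -0.04 after quantile normalization. The smallest change of this branch with both proteins was that of *Canx*, a membrane lectin chaperone, at -0.03 (95% interval -0.33 to 0.26).

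Among the 10 tested ERAD genes, 1 rose and 1 fell with Rspo2, and 3 rose and 3 fell both with Wnt3a and with both proteins. Over all tested probes 10.9% rose and 5.92% fell with Rspo2, 18.3% and 13.2% with Wnt3a, and 21.9% and 17.3% with both. After quantile normalization 0 of the 10 rose and 2 fell with Rspo2, and 1 rose and 3 fell in each of the other comparisons with BSA. *Syvn1*, the Hrd1 ligase itself, had log2 values of 2.26, 2.31 and 2.21 in BSA and 2.07, 2.13 and 1.91 with Rspo2. It had 1.91, 1.93 and 1.89 with Wnt3a and 1.72, 1.85 and 1.86 with both proteins. All treated samples lay below BSA, and the samples with both proteins lay below those with Wnt3a alone. The difference between both proteins and Wnt3a alone did not pass, at a log2 change of -0.1 (adjusted p = 0.525 by limma). The log2 change against BSA was -0.35 with Wnt3a (SE 0.08, adjusted p = 0.00739) and -0.45 with both proteins (SE 0.08, adjusted p = 0.00129). With Rspo2 it was -0.22 (adjusted p = 0.07). A much dimmer *Syvn1* probe was at 0.18 with both proteins (SE 0.43, adjusted p = 0.776).

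*Edem3*, a mannosidase-like protein that marks glycoproteins for disposal, was between 0.77 and 0.99 in BSA and between 0.49 and 0.70 in the treated samples, with no overlap. Its log2 changes were -0.29 (adjusted p = 0.036) under Rspo2, -0.32 (adjusted p = 0.0114) under Wnt3a and -0.26 (adjusted p = 0.0242) under the combination. These calls were lost in 15, 3 and 8 of 26 other fits. Its relative *Edem2* did not pass in any comparison, with changes between 0.02 and 0.27 against BSA.

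*Dnajb9*, a co-chaperone that is a known target of spliced Xbp1, was between -1.37 and -1.23 in BSA, -1.10 and -0.88 with Rspo2, -0.89 and -0.58 with Wnt3a, and -0.94 and -0.75 with both proteins. Wnt3a raised it by 0.53 (adjusted p = 0.00352) and the combination by 0.44 (adjusted p = 0.00536), and these were 0.61 and 0.51 after quantile normalization. *Derl2*, a component of the retrotranslocation channel, rose by 0.27, 0.32 and 0.28 in the 3 comparisons with BSA, where the first was -0.02 with normexp background correction, and its dimmer probe was at -0.10 with both proteins (adjusted p = 0.5). After quantile normalization *Derl2* was at 0.05 with Wnt3a (adjusted p = 0.58) and at 0.05 with both proteins (adjusted p = 0.565). *Sel1l* passed with Wnt3a at 0.36 (adjusted p = 0.042), but its dimmer probe was at -0.26 there (adjusted p = 0.0969), and the call was lost in 19 of 26 other fits, among them quantile normalization at 0.32 (adjusted p = 0.0627). *Herpud1*, a scaffold of the Hrd1 complex and a strongly stress-induced gene, passed with both proteins at 0.21 (adjusted p = 0.0466), which was 0 after quantile normalization.

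None of the 3 sensors passed the test in any comparison. *Ern1* had log2 values between -3.81 and -3.49 in BSA and between -3.64 and -3.28 with both proteins, a log2 change of 0.14 (95% interval -0.29 to 0.58). *Eif2ak3* changed by -0.08 with both proteins (95% interval -0.41 to 0.24), and *Atf6* by 0.10 (95% interval -0.15 to 0.34). In all 3 the groups overlapped. *Xbp1* had values of 2.83, 3.05 and 2.86 in BSA, 3.22, 3.33 and 3.22 with Rspo2, 3.11, 3.1 and 3.37 with Wnt3a, and 3.51, 3.34 and 3.15 with both proteins. Every treated sample lay above BSA. Its change passed with both proteins at 0.42 (SE 0.11, adjusted p = 0.0123), and was 0.20 after quantile normalization (adjusted p = 0.109). Under Rspo2 it was 0.34 (adjusted p = 0.0555) and under Wnt3a 0.28 (adjusted p = 0.0785), neither of which passed. Splicing of *Xbp1* mRNA was not measured.

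Among the 7 tested genes of the *Atf4*-*Ddit3* branch, 1 rose with Rspo2, 3 with Wnt3a and 4 with both proteins, and none fell. Over all tested probes 10.9%, 18.3% and 21.9% rose. After quantile normalization 0, 1 and 3 of the 7 rose, and none fell. *Atf4* had log2 values of 4.80, 5.01 and 4.91 in BSA, 5.25, 5.17 and 5.35 with Rspo2, 5.26, 5.28 and 5.51 with Wnt3a, and 5.61, 5.43 and 5.22 with both proteins. The treated samples lay above BSA, and the treated groups overlapped. Its change was 0.44 with Wnt3a (adjusted p = 0.0139) and 0.51 with both proteins (adjusted p = 0.00508). After quantile normalization these were 0.15 (adjusted p = 0.251) and 0.23 (adjusted p = 0.0649), and neither passed.

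*Ddit3* had values of 1.74, 2.06 and 1.99 in BSA, 2.19, 2.12 and 2.60 with Rspo2, 2.31, 2.36 and 2.68 with Wnt3a, and 2.66, 2.43 and 2.33 with both proteins. Its change was 0.52 with Wnt3a (SE 0.15, adjusted p = 0.0257) and 0.54 with both proteins (SE 0.15, adjusted p = 0.0174). After quantile normalization the Wnt3a change was 0.38 and lost its call (adjusted p = 0.07), and that with both proteins was 0.42 (adjusted p = 0.0347). In each comparison with BSA, the largest change of this branch relative to its error was that of *Chac1*, an Atf4 and Chop target that degrades glutathione.

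*Chac1* had log2 values of 1.77, 1.82 and 1.72 in BSA, 1.99, 2.05 and 2.08 with Rspo2, 2.33, 2.41 and 2.36 with Wnt3a, and 2.41, 2.29 and 2.25 with both proteins. The Rspo2 samples lay above BSA, and the samples with Wnt3a or with both proteins lay above those, overlapping each other. Rspo2 raised it by 0.27 (adjusted p = 0.0316), Wnt3a by 0.60 (SE 0.07, adjusted p = 0.000427) and the combination by 0.55 (SE 0.07, adjusted p = 0.000228). The Rspo2 call was lost in 14 of 26 other fits, among them quantile normalization. The calls with Wnt3a and with both proteins were each lost in 2 of 26, and quantile normalization gave 0.46 and 0.43.

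*Ppp1r15a*, the Gadd34 subunit that directs a phosphatase to eIF2alpha, passed with both proteins at 0.56 (adjusted p = 0.0155) and was at 0.15 with Wnt3a (adjusted p = 0.485). Its Wnt3a log2 values were -0.02 and -0.14 on slide 2 and 0.46 on slide 3. The samples with both proteins, all on slide 3, were at 0.59, 0.63 and 0.30. Within slide 3, both proteins less Wnt3a gave 0.05, and over all arrays the difference was 0.41 (adjusted p = 0.195), with overlapping groups. Other targets of this branch did not pass: with both proteins *Trib3*, a pseudokinase induced by Chop, was at -0.08 (adjusted p = 0.481), *Asns*, asparagine synthetase, at 0.12 (adjusted p = 0.307), and *Sesn2*, a sestrin, at -0.04 (adjusted p = 0.913). *Asns* and *Trib3* hold the C/EBP-ATF element in their promoter windows, as *Chac1* does.

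Beyond the 38 genes, 161 further genes of ER folding, ERAD, translocation, glycosylation, *Atf4* targets and ER export were listed, and 152 were tested. With both proteins 65 of them rose and 12 fell, with a median log2 change of 0.23, and 0 passed at 2-fold. After quantile normalization 33 rose and 23 fell. Over all tested probes the shares were 21.9% higher and 17.3% lower, and 19.6% and 16.9% after quantile normalization. The translocon and signal peptidase genes, which bring new proteins into the ER, had 16 of 21 higher and 0 lower, and 8 of 21 higher and 0 lower after quantile normalization. Their largest change was *Srprb*, a subunit of the signal recognition particle receptor, at 0.73 (adjusted p = 0.00142). The other *Atf4* targets and tRNA synthetases had 11 of 25 higher and 1 lower, or 4 and 1 after quantile normalization, led by *Nupr1* at 0.93 and *Gadd45a* at 0.82, both stress-induced genes, with the transcription factor *Cebpb* at -0.86. Among 16 ER-anchored factors and stress death genes 4 rose and 4 fell, and the largest changes were those of *Map3k5* at -0.81 and *Bcl2l11* at -0.68, both promoters of apoptosis. Of 17 cytosolic and mitochondrial heat shock genes, which answer to a different stress response, 6 rose and 3 fell, or 3 and 3 after quantile normalization. Among them *Cryab*, a small heat shock protein, was at 0.84.

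**Figure D4:**
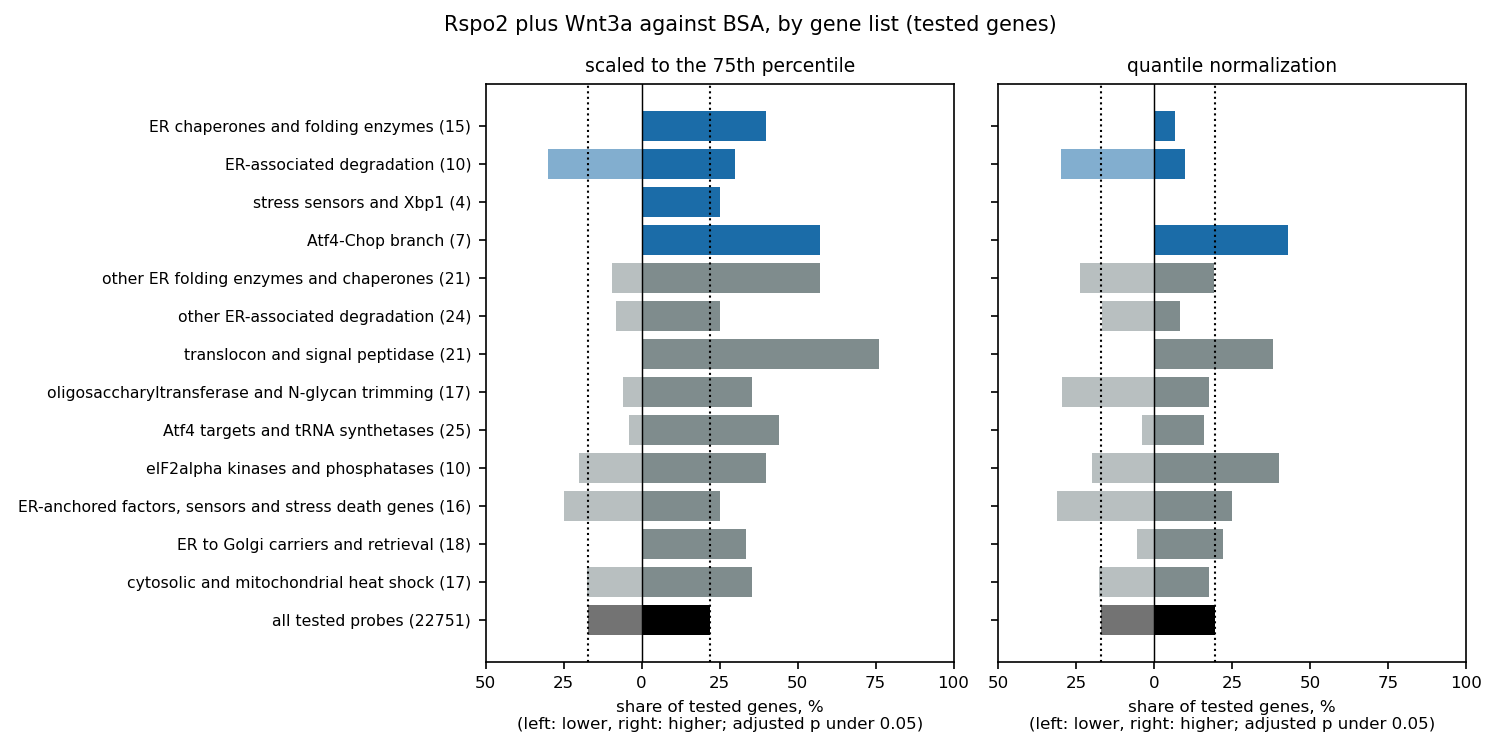
Share of tested genes (x axis, %) that were higher (right) or lower (left) with both proteins than in BSA at an adjusted p under 0.05, for the 4 branches of the ER stress genes (blue), the 9 lists of further genes (grey) and all tested probes (black, dotted lines), with the number tested in parentheses. After quantile normalization (right panel) the share of chaperones that rose drops from 6 to 1 of 15, and that of the *Atf4*-*Ddit3* branch from 4 to 3 of 7.

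Probes of 1 gene did not always move alike. *Pdia6*, a disulfide isomerase, had 3 RefSeq probes at 0.17, 0.34 and 0.48 with both proteins and a dimmer probe for another transcript at -0.70 (adjusted p = 0.000141). *Hyou1*, a large ER chaperone of the Hsp70 family, was at 0.15 at its bright probe and -0.70 at a dim one (adjusted p = 0.0136). *Calr*, a lectin chaperone, was at 0.31 (adjusted p = 0.0776) and at 0.60 for its dimmer probe (adjusted p = 0.0144). *Sel1l* was at 0.23 and -0.26 with both proteins, neither of which passed. A dimmer *Hsp90b1* probe passed between both proteins and Wnt3a alone, at 0.33 (adjusted p = 0.0303), where the brighter one was at 0.10 (adjusted p = 0.527). The dim *Hyou1* probe passed in the interaction, at 0.98 (adjusted p = 0.0472), where the bright one was at -0.10 (adjusted p = 0.795).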

How the data were processed

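RNA of 12 C57MG samples was hybridised to single-color Agilent arrays, and the deposited intensities are the processed signal, mean signal and local background that the authors obtained with Agilent Feature Extraction 9.5.3.1. The authors' deposited value table holds a linear ratio to the 75th percentile of each array, and recomputing it gave 99.95% to 100% of its values above 1. The methods name GeneSpring with a 75th percentile normalization, a 2-fold threshold and an unequal-variance test.

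Here log2 processed signal was set against the 75th percentile of its array (R 4.3.3, limma 3.58.1). Control spots and 1327 of 520548 spot values with outlier flags were left out, and spots of a probe were averaged. Probes were tested (22751) where every array of some group had them well above background, with lmFit and eBayes over all 4 groups and Benjamini-Hochberg adjustment. Values for the text were given for members called at 2-fold, for *Ern1*, *Eif2ak3*, *Atf6*, *Xbp1*, *Atf4*, *Ddit3*, *Hspa5* and *Foxred2*, and for the largest and smallest changes of a branch. The other members given in full were chosen after their values were seen. From the other lists, the largest changes were named. The members, lists and tests were chosen with earlier results of these data known. The fits were tested on simulated data. Changes of 1.5-fold were recovered at any size in 58% of cases with Rspo2, 54% with Wnt3a and 47% with both proteins against BSA. Changes of 3-fold were recovered in 93% to 95%. The labels call the replicates biological, and each was a separate monolayer of 1 cell line.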

Additional observations from a re-analysis of the deposited data

Results flagged for a closer look

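The effect of Rspo2 on *Foxred2* differed between cells with and without Wnt3a, with an interaction of -1.76 on the log2 scale (95% interval -2.12 to -1.41, adjusted p = 0.000333 by limma). All 3 samples with both proteins lay below all 3 samples with Wnt3a alone, while the samples with Rspo2 alone overlapped BSA. Among 15 other settings and 12 fits that each left out 1 array, the interaction kept its sign wherever it was fitted. It lost its call with normexp background correction (offset 50), at -1.13 (adjusted p = 0.688). Groups of 3 were not tested for outlying samples.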

How the results depend on the processing

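*Foxred2* with both proteins against BSA kept its direction and its call at 2-fold under every setting run. The same counts at 2-fold changed in few places: with normexp background correction they were 0 with Wnt3a, with both against Wnt3a and in the interaction, with slide as a term 0 with Wnt3a, and with the methods' t-test after adjustment 0 for both against Wnt3a. The methods' t-test gave no interaction. With no fold requirement the counts against BSA were 6, 13 and 17.

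Counts at any size, written as higher and lower, moved more. Against 5 and 1 with Rspo2, 10 and 3 with Wnt3a, and 14 and 3 with both, they were 0 and 0, 0 and 0, and 0 and 1 with normexp correction or with slide as a term. Quantile normalization gave 1 and 4, 4 and 5, and 5 and 3. Taking the percentile over probes above background on all arrays gave 2 and 2 with Rspo2 and 8 higher with both. Testing all probes gave 0 and 0 with Rspo2, 6 higher with Wnt3a and 8 higher with both, and a laxer detection flag gave 0 lower with Rspo2. Slide as a random block gave 3 and 0 with Rspo2 and 8 higher with both. The adjusted methods' t-test gave 0 and 0 with Rspo2, 2 higher with Wnt3a and 5 higher with both. The cause was not tested.

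Among changes that passed the test under at least 1 of the settings compared, 7 turned direction. With normexp correction and Rspo2, *Dnajb11* was at -0.03 and *Derl2* at -0.02. With quantile normalization, Wnt3a gave *Hspa5* -0.22, *Pdia6* -0.23 and *Creld2* -0.04, and both proteins gave *Hspa5* -0.10 and *Hsp90b1* -0.01. Counting every member, passed or not, quantile normalization turned the sign of 4 changes with Rspo2, 12 with Wnt3a and 8 with both proteins.

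Leaving out each array in turn gave 0 to 6 higher and 0 to 1 lower with Rspo2, 6 to 12 higher and 3 lower with Wnt3a, and 7 to 17 higher and 2 to 3 lower with both. The count with both was 7 without Rspo2 plus Wnt3a replicate 1, 9 without its replicate 2 and 9 without BSA replicate 3, which also gave 6 higher with Wnt3a. With Rspo2 there were 3 higher and 0 lower without Rspo2 plus Wnt3a replicate 2, and 0 lower without Rspo2 replicate 1.

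Deviations of samples with the same replicate number correlated between -0.41 and 0.27, above 0.1 in 4 of 18 pairs. Those of different replicate numbers correlated between -0.40 and 0.42, above 0.1 in 9 of 36 pairs, so no pairing by number was seen. With the replicate number as a block, the Rspo2 counts became 0 higher and 0 lower, and no other count moved by over 1.5 times. With 3 arrays per group, and slides that each hold part of the design, small changes cannot be told apart from slide.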
